A study of Mus musculus with 21 samples.

Results

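Among the 21 liver tumours profiled by array comparative genomic hybridization (aCGH), 12 came from 5 mice that contributed more than 1 lesion, and these sets of lesions are described here. The members were chosen by the leading number of the sample titles, which was taken as the mouse although no label spells this out. Mouse 608 gave lesions L1, L3 and L6, mouse 2094 gave L1, L2 and L3, mouse 612 gave L2 and L5, mouse 1770 gave L1 and L4, and mouse 2064 gave L1 and L2, which makes 9 pairs of lesions from the same animal. The other 9 tumours came from 9 mice with a single tumour each. All animals were of the C57BL/6 strain and ate CD-HFD for 12 months, a high-fat diet without choline that causes steatohepatitis. Mice 1770 and 2064 (4 lesions) received the diet alone, whereas mice 608, 612 and 2094 (8 lesions) also received an antibody against PD1 for 8 weeks. Every tumour DNA came from fixed, embedded sections and was hybridised once, with Cy3, against a Cy5-labelled reference that the labels call a pool of liver tails. DNA arrays carry no expression markers against which the labelled tissue could be checked.

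Liver tumours commonly gain or lose whole chromosomes. When a liver holds several nodules, a change present in all of them can be inherited from a common precursor or can arise separately in each, and a change found in a single nodule is called private. Mouse chromosome 15 carries Myc, which encodes a growth-promoting transcription factor, and mouse chromosome 9 carries Yap1, which encodes a transcriptional co-activator of the Hippo pathway.

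For each tumour and autosome the value was the mean log2 ratio of tumour to reference signal, centred on the array and reduced by the median of the other tumours on the same array design. The arrays lay on 3 slides. Slide 1 (design 1) held 5 of the 12 lesions, slide 2 held 4 and slide 3 held 3 (both design 2), so lesions L1 and L6 of mouse 608 shared a slide while L3 of that mouse, and L5 of mouse 612, were run on another slide and design. The share of spots with tumour signal well above background ranged from 65.0% in 608 L1 to 99.99% in 2064 L2, with a median of 95.6%, so that 608 L1 was measured with the least light. Errors given as ± are 95% intervals over 5-Mb windows of the chromosome. They describe how evenly a value held along the chromosome, since no lesion was hybridised again. In bulk DNA the share of cells that carry a change and the number of copies per cell cannot be told apart.

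A value of 0.15 or more above or below 0 was called a gain or a loss. Of the 228 autosome values of the 12 lesions 44 (19.3%) were called, 22 as gains and 22 as losses. Over all 21 tumours 12.3% of 399 values were called, 6.52% as gains and 5.76% as losses, and the 9 single tumours held 5 calls among 171 values. The lesions of a mouse differed widely in how many autosomes were called. In mouse 608, L6 had 16 called autosomes, L1 had 5 and L3 had 1. In mouse 2064, L1 had 10 and L2 had 0. In mouse 1770, L1 had 5 and L4 had 0, and in mouse 612, L2 had 5 and L5 had 2. All 3 lesions of mouse 2094 had 0.

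**Figure D1:**
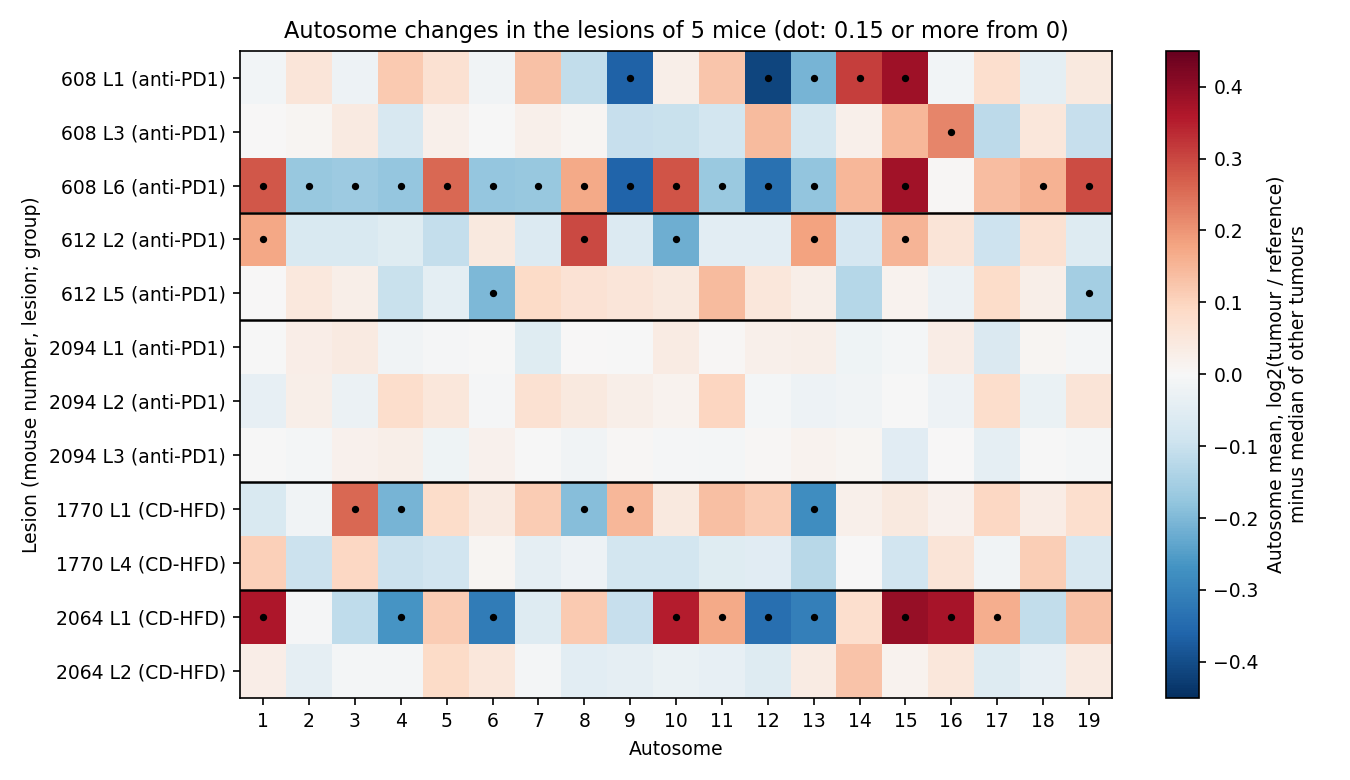
Autosome values (colour, log2 scale) of the 12 lesions (rows, grouped by mouse) over the 19 autosomes (columns), with a dot where the value is 0.15 or more from 0. Lesions 608 L1 and 608 L6 have dots of the same colour on autosomes 9, 12, 13 and 15, the rows of mouse 2094 are pale throughout, and most other dots stand in a single row of their mouse.

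Each autosome of each mouse was then classed by whether its lesions were called together. Of 95 combinations of mouse and autosome, 40 had at least 1 called lesion. No change was called in every lesion of a mouse, and none was called as a gain in 1 lesion and as a loss in another. In 4 combinations, all in mouse 608, 2 of the 3 lesions were called with the same sign. Another 29 were private, which required 1 called lesion that differed from every other lesion of the mouse by at least 0.15, and 7 were unresolved, since a called lesion had an uncalled one closer to it than that. The private changes were 18 gains and 11 losses. They lay mostly in single lesions: 10 in 2064 L1, 8 in 608 L6, 4 each in 1770 L1 and 612 L2, and 1 each in 608 L1, 608 L3 and 612 L5.

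Lesions 608 L1 and 608 L6 had 4 called changes in common. Chromosome 9 was at −0.36 ± 0.041 in L1, −0.36 ± 0.012 in L6 and −0.10 ± 0.0094 in L3. It was below 0 in all 25 of its windows in each of the 3 lesions, but L3 did not reach the threshold. Chromosome 15 was at 0.38 ± 0.062 in L1, 0.38 ± 0.023 in L6 and 0.15 ± 0.027 in L3. The value of L3 was 0.149 before rounding and so fell just short of a change shared by all 3 lesions, and all 21 windows lay above 0 in each lesion. Chromosome 13 was at −0.21 ± 0.045 in L1, −0.18 ± 0.019 in L6 and −0.079 ± 0.016 in L3. Chromosome 12 was the one of these 4 where L3 lay on the other side of 0. It was at −0.41 ± 0.051 in L1, −0.34 ± 0.013 in L6 and 0.14 ± 0.019 in L3, with all 24 windows below 0 in the first 2 lesions and all 24 above 0 in L3. Chromosome 14 was a gain of 0.31 ± 0.037 in L1 and just missed the threshold in L6, at 0.15 ± 0.0097 (0.148 before rounding), while L3 was at 0.023 ± 0.016.

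Beyond these, the lesions of mouse 608 were distinct. L6 alone had gains of chromosome 19 (0.29 ± 0.023, against 0.046 ± 0.077 in L1 and −0.10 ± 0.014 in L3), 10 (0.28), 1 (0.28), 5 (0.26) and 8 (0.17), and losses of chromosomes 6, 7 and 2 (each −0.17). L3 alone had a gain of chromosome 16, at 0.22 ± 0.014, where L1 was at −0.013 ± 0.064 and L6 at 0.0049 ± 0.024. How many of the 4 changes were called in both L1 and L6 depended on the processing. It was 4 after a correction for GC content (L3 then passed the threshold on chromosome 15, at 0.19). With the authors' loess ratios it was also 4, and L3 was then called as a gain on chromosome 12, at 0.16. The count was 3 with probes common to both designs (not 13). With no baseline the count was 3 (not 13, at −0.12 in L6), and L3 was then called as a gain on chromosome 12, at 0.17. With probes well above background on every array the count was 2 (12 and 15). Then 608 L1, the dimmest array, stood at −0.15, −0.18 and −0.049 on chromosomes 9, 12 and 13, against −0.28, −0.28 and −0.11 in L6. With the normexp background correction, which models background from the raw spot signals, the count was 0. None of the 4 was then called in 608 L1, at −0.12, −0.14, −0.088 and 0.14 on chromosomes 9, 12, 13 and 15. In 608 L6 they stood at −0.23, −0.22, −0.11 and 0.28, called on all but 13. The normexp offset of 50 exceeds the median background-subtracted tumour signal of 608 L1, which was 27.0. Its part in the lost calls was not tested.

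The 5 largest private changes of all lesions were in 2064 L1. This lesion gained chromosome 15 (0.39 ± 0.054), 16 (0.37 ± 0.045), 1 (0.36 ± 0.034) and 10 (0.35 ± 0.038) and lost chromosome 12 (−0.34 ± 0.039). Its neighbour 2064 L2, hybridised on the same slide, was at 0.017, 0.051, 0.029, −0.029 and −0.059 on the same chromosomes. No autosome of 2064 L2 was called, and its highest was chromosome 14 at 0.13. The signal of 2064 L2 was the brightest of the 12, with a median of 539.

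Mouse 1770 also paired a lesion with several calls and one with 0. Chromosome 13 was at −0.28 in L1 and −0.13 in L4, chromosome 3 at 0.26 and 0.095, chromosome 4 at −0.21 and −0.095, chromosome 8 at −0.19 and −0.024, and chromosome 9 at 0.15 and −0.081. The sign was the same in both lesions on 4 of these 5 chromosomes, with L4 at the smaller size. In mouse 612 the lesions had no called chromosome in common. L2 gained chromosome 8 (0.30, against 0.066 in L5) and lost chromosome 10 (−0.22, against 0.044), and L5 lost chromosome 6 (−0.20, against 0.044 in L2). The private gain of chromosome 13 in 612 L2 (0.18) rested on the baseline: against the tumours of single-tumour mice it was 0.053, because 4 of the 8 tumours of that slide were low there and pulled the median down. Against the same tumours the gain of chromosome 9 in 1770 L1 was 0.085 and that of chromosome 17 in 2064 L1 was 0.13 (0.16 above), so neither was called.

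The lesions of mouse 2094 were the quietest set. The SD over autosomes was 0.028 in L1, 0.043 in L2 and 0.019 in L3, whereas it lay between 0.052 and 0.24 in the lesions of the other 4 mice. The largest of all their values was 0.096.

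**Figure D2:**
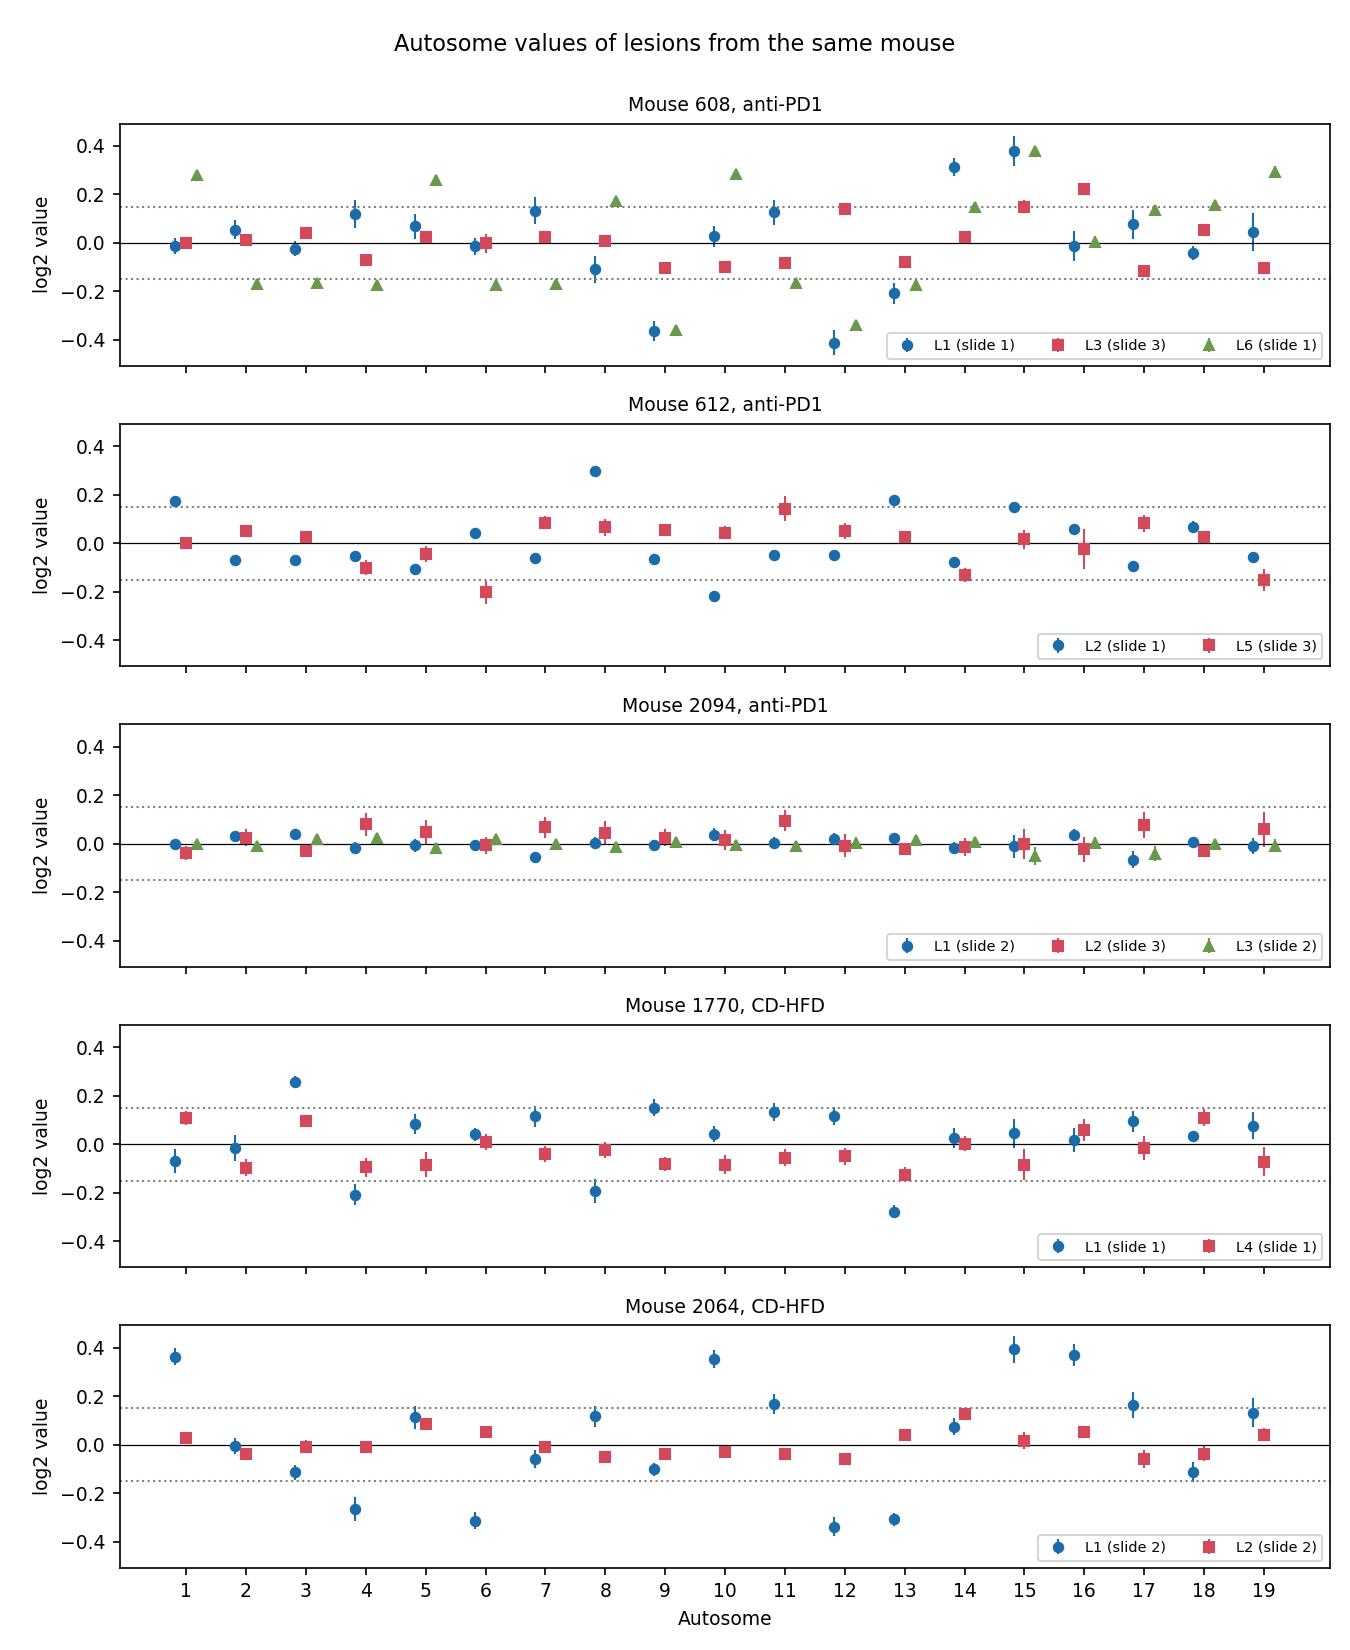
Autosome values (y axis, log2 scale) of each lesion (symbols) by autosome (x axis), with a panel per mouse, 95% intervals over 5-Mb windows as bars and dotted lines at 0.15 and −0.15. In mouse 608 the circles and triangles of L1 and L6 lie close together beyond a dotted line on autosomes 9, 12, 13 and 15. They also lie close together, inside the dotted lines, on autosomes 16 and 17, and part elsewhere. In mouse 2064 the circles of L1 reach 0.39 where the squares of L2 lie near 0.

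Whether lesions of the same mouse were more alike than lesions of different mice was tested over all 21 tumours. Pearson's r across the 19 autosomes, which are not independent points, was 0.55 for 608 L1 and L6, 0.37 for 2094 L1 and L3, 0.26 for the pair of mouse 1770 and 0.14 for that of mouse 2064. These 4 pairs each shared a slide. The pairs that crossed slides were lower: 0.067 and 0.049 for 608 L3 with L1 and L6, 0.036 for mouse 612, and −0.55 and −0.30 for 2094 L2 with L1 and L3. No lesion of mouse 2094 had a called autosome, so r in its pairs compared only values no larger than 0.096. Between uncalled tumours of different mice r reached 0.97 (2094 L2 with 2115 L2). The mean over the 9 pairs was 0.068, against −0.048 for pairs of different mice on the same kind of slides. This difference of 0.12 did not pass the test (p = 0.28, two-sided exact permutation of the mouse labels within slide and treatment, 497664 arrangements). Within slides it was 0.45 (4 pairs of the same mouse, exact permutation p = 0.053), between slides it was −0.15 (5 pairs, exact permutation p = 0.16), and without 2094 L2 it was 0.25 (exact permutation p = 0.046). A baseline of other mice alone leaves out the lesion's own siblings, and with it the difference in r was 0.21 (exact permutation p = 0.054). That baseline depends on the mouse labels that the test permutes. In size the lesions were not closer either. The mean absolute difference per autosome was 0.126 between lesions of the same mouse and 0.105 between matched lesions of different mice (difference 0.020, exact permutation p = 0.16). At called autosomes, the other lesion of the same mouse lay on the same side of 0 in 43 of 66 cases (65.2%), and lesions of other mice did so in 423 of 914 cases (46.3%). Mouse 608 supplied 44 of the same-mouse cases, 29 of them on the same side, and the other mice supplied 22 cases, of which 14 were. With the tumours of single-tumour mice as baseline the shares were 47 of 69 (68.1%) for the same mouse and 507 of 931 (54.5%) for other mice.

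**Figure D3:**
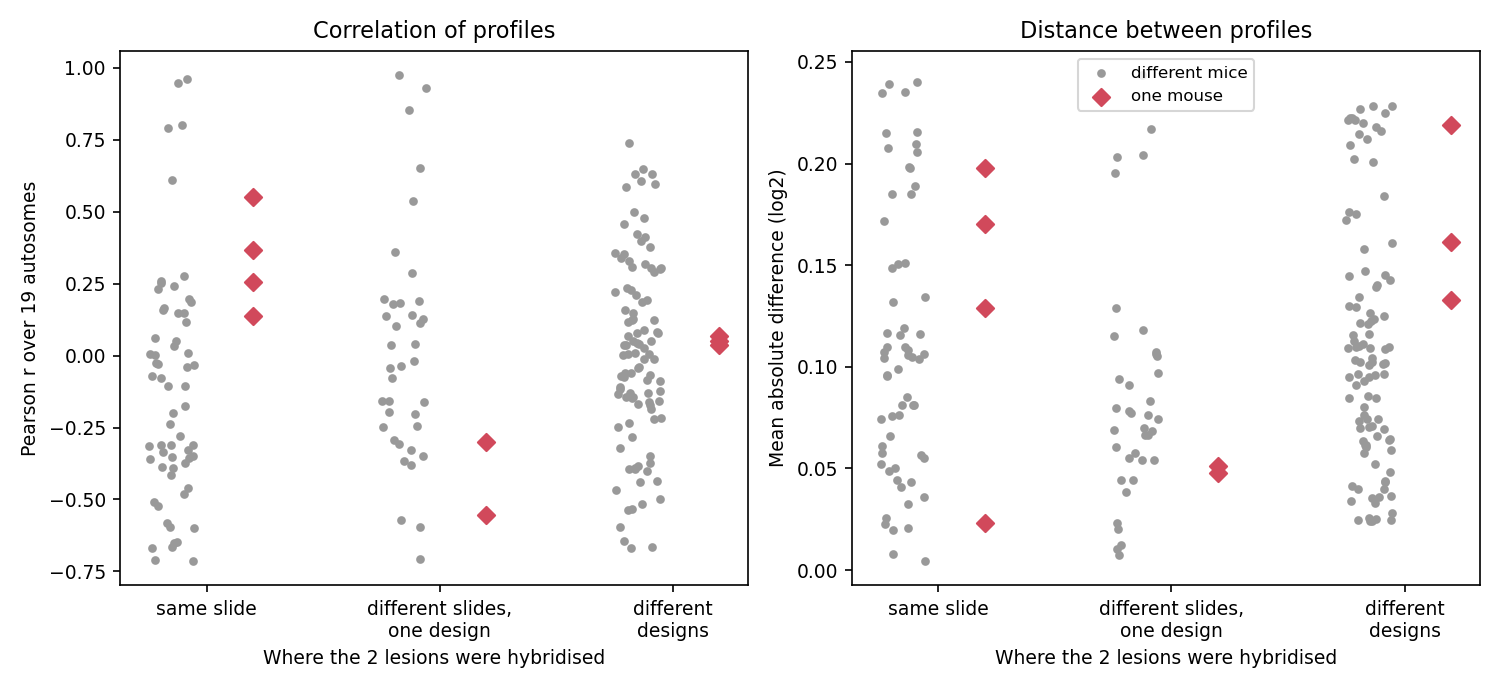
Pearson r over the 19 autosomes (left) and mean absolute difference per autosome in log2 units (right) for all pairs of the 21 tumours, split by where the lesions were hybridised, with red diamonds for the 9 pairs of the same mouse and grey points for the 201 pairs of different mice. The diamonds lie inside the range of the grey points in every column, and on the left they lie above 0 for pairs of the same slide.

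By the number of shared calls, the profile most like that of 608 L6 belonged to a different animal. This number depends on how many calls a lesion had. There were 10 in 2064 L1 but only 5 in 608 L1, of which 4 were called with the same sign in 608 L6. Lesions 608 L6 and 2064 L1, from different mice, treatments, slides and array designs, had 7 autosomes called with the same sign, the most among all pairs. Both gained chromosomes 1, 10 and 15 and lost 4, 6, 12 and 13, and only chromosome 11 was called with opposite signs, at −0.17 and 0.17. Their r was 0.74, against 0.55 for 608 L6 with its own sister lesion L1, and it stayed between 0.71 and 0.75 in the 10 other processings of the values, with 3 to 9 shared calls. Of the 4 changes that 608 L1 and L6 had in common, those on chromosomes 12, 13 and 15 were thus also called in 2064 L1, and chromosome 9, at −0.10 in 2064 L1, was not. Among the 5 mice, chromosome 15 was gained in lesions of 3 mice (608, 612 and 2064), chromosome 13 was lost in 3 (608, 1770 and 2064) chromosome 1 was gained in 3 (608, 612 and 2064), chromosome 4 was lost in 3 (608, 1770 and 2064) and chromosome 6 was lost in 3 (608, 612 and 2064). Descent from a common precursor and recurrence in separate lesions cannot be told apart from these values.

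Lesion-to-lesion spread within mice was set against the spread between mice with limma's moderated F test over the 12 lesions. None of the 19 autosomes passed an adjusted p of 0.05 (0% called), and 4 had an unadjusted p below 0.05. Chromosome 15 came first, with means of 0.30 in mouse 608, 0.21 in 2064, 0.085 in 612 and −0.020 in both 1770 and 2094 (limma, adjusted p = 0.075). Chromosome 9 followed (adjusted p = 0.12), then 13 and 12 (both adjusted p = 0.22). Chromosome 15 did pass with other mice alone as baseline (limma, adjusted p = 0.014) and with array weights (adjusted p = 0.021). Leaving out 1 lesion decided the count: without 2064 L2 chromosomes 9, 12, 13 and 15 passed, without 608 L3 chromosomes 9, 12 and 15, and without 2064 L1 chromosomes 9 and 15. Without mouse 2064 it was 9 and 15, and without mouse 612 it was 15. In 5-Mb windows 0 of 498 passed (0%), with 18 at an unadjusted p below 0.05 in limma.

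By treatment, the mean absolute difference between lesions was 0.18 in mouse 608, 0.13 in 612 and 0.041 in 2094, all given anti-PD1, and 0.13 in 1770 and 0.20 in 2064, fed CD-HFD alone. The groups overlapped. The mean was 0.119 ± 0.072 (SD over 3 mice) after anti-PD1 and 0.163 ± 0.049 (SD over 2 mice) on the diet alone (two-sided exact permutation p = 0.5). The smallest p that the 10 arrangements allow is 0.2, so this design could not pass 0.05.

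Segments within chromosomes were compared next. A segment was altered when its mean was 0.2 or more from 0. The altered length was 691 Mb in 608 L1 and 1023 Mb in 608 L6, of which 306 Mb had the same sign in both. This was 44.3% of the length altered in L1 and 29.9% of that altered in L6. For 608 L6 and 2064 L1 the length in common was 653 Mb, or 63.8% and 62.6% of each. In the remaining pairs of the same mouse the common length was at most 2.2 Mb, and after the GC correction at most 1.2 Mb. Over the 9 pairs 10.4% of the altered length was in common, against 5.23% over the 201 pairs of different mice, and without mouse 608 it was 0.373%. Some length was altered with opposite signs: 29.6 Mb in mouse 1770, 23.5 Mb between 608 L1 and L6, and 7.0 and 6.7 Mb between these and 608 L3. It was 2.2 Mb between 2094 L1 and L2 and 4.1 Mb between 2094 L3 and L2. After the GC correction these lengths were 9.5, 5.3, 0.3, 0, 0 and 0 Mb, and mouse 2064 had 0.4 Mb.

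Of 28 genes known in liver cancer or immune evasion, chosen as a list, all had probes. Over 12 lesions, 67 of 336 mean ratios within 500 kb of a gene were 0.15 or higher and 48 were −0.15 or lower, 34.2% in all (115 values), and after the GC correction 84 values were past 0.15. Over all 1-Mb windows of the same lesions 31.9% were past 0.15, 16.2% as gains and 15.7% as losses, so the share at the listed genes was near that of the genome. Myc (chr15:61818043-61818102 for its probe, mm9 build) stood at 0.36 in 608 L1, 0.38 in 608 L6, 0.17 in 608 L3, 0.42 in 2064 L1, −0.0012 in 2064 L2 and 0.16 in 612 L2. Here all 3 lesions of mouse 608 were above the threshold, unlike for the whole chromosome. Yap1 (chr9:7932315-8000320) and Birc2, a neighbouring gene for an inhibitor of apoptosis, were low in 608 L1 (−0.42 and −0.41) and 608 L6 (−0.35 and −0.34). In 608 L3 they were at −0.091 and −0.083, and in 1770 L1 Yap1 was at 0.21. The deepest values of the list were at Cdkn2a (chr4:88923293-88938124), which encodes inhibitors of the cell cycle, and Met (chr6:17420090-17523648), which encodes the receptor for hepatocyte growth factor. Cdkn2a was at −0.55 in 2064 L1 and −0.048 in 2064 L2, and Met was at −0.55 and 0.074, in both cases lower in L1 than its whole chromosome (−0.26 and −0.31). Met was also at −0.29 in 612 L5. Mdm2 (chr10:117127827-117142299), an inhibitor of p53, was at 0.33 in 2064 L1 and 0.21 in 608 L6 and at −0.19 in 1770 L4. Ccnd1, which encodes cyclin D1, had opposite signs in the lesions of mouse 608, at 0.38 in L1 and −0.18 in L6 (0.18 and −0.20 after the GC correction). The other 21 genes ranged from −0.38 to 0.39 over the lesions.

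The segment farthest from 0 that was not a whole chromosome was small in each mouse. In 2094 L2 it covered 170 kb at chr5:90890766-91060661, where probes are named for the liver genes Alb, Afp and Afm, which encode albumin and related plasma proteins, and for Rassf6. Its mean was 0.65 over 10 probes (SD over probes 0.83). The same stretch was at 0.35 in 2094 L1 and 0.013 in 2094 L3, and lay between −0.76 and 0.46 in the other 20 tumours, so that values far from 0 in both directions occurred there (4 probes on design 1). In 2064 L2 it was chr5:125904883-128736871, at −0.45 over 30 probes (SD 1.62) and at 0.058 in 2064 L1.

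In mice 608, 612 and 1770 that segment was a place on chromosome 6 where the lesions of a mouse did go together. It was at −3.04 in 608 L3 and −2.80 in 612 L2 but at 2.05 in 1770 L1. The design 1 baseline of mouse 1770 held tumours of low signal at this place. In the 1-Mb window named next, 1770 L1 and L4 were at 1.44 and 1.36, and the single tumours 2067 and 2085 were each at 1.29. In windows of 1 Mb, 1 of 2107 (0.0475%) differed between mice, chr6:60000001-61000000 (limma, adjusted p = 4.2e-06). Among 12257 single probes present on both designs 5 (0.0408%) passed, and the first 2 are named for Mmrn1, which encodes multimerin 1, a protein of platelets and endothelium. The reference signal was not well above background at any of the 3 Mmrn1 probes on any of the 21 arrays (2.99% to 9.89% of the array's median), so the ratios behind this test have no measured denominator there, and the tumour signal is given instead. As a share of the array's median it was 15.9%, 5.75% and 13.7% in 608 L1, L3 and L6 and 5.21% and 6.02% in 612 L2 and L5, where 0 of 3 probes were well above background. It was 136%, 104% and 120% in 2094 L1, L2 and L3, 129% and 123% in 1770 L1 and L4, and 83.6% and 136% in 2064 L1 and L2, with all 3 probes well above background. The 5 lesions of mice 608 and 612 thus lay below all 7 lesions of the other 3 mice, on more than 1 slide and design. Among the single tumours 604 was low, at 6.87%, and the other 8 were at 100.1% or higher. This place is known to be missing from a C57BL/6 substrain. The remaining 3 probes are named for Cphx and Slc25a37 on chromosome 14 and Efcab7 on chromosome 4, and for Efcab7 the reference was again not well above background in the 12 lesions. Without a baseline the centred log2 ratio at Cphx was between −0.23 and 0.53 in the 5 lesions of mice 608 and 612 and between 1.496 and 2.4996 in the other 7. At Slc25a37 it was between 0.43 and 0.75 in the 5 and between 1.19 and 2.23 in the 7. These probes were picked by the test on the same 12 lesions, which favours such gaps. Of the single tumours, 604 was at 0.033 at Cphx, and the lowest of the others was 822, at 1.35. The gap at Slc25a37 did not hold over the single tumours. There 604 was at 0.22, but 1109 and 822 lay between the 2 sets of lesions, at 0.77 and 0.81.

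**Figure D4:**
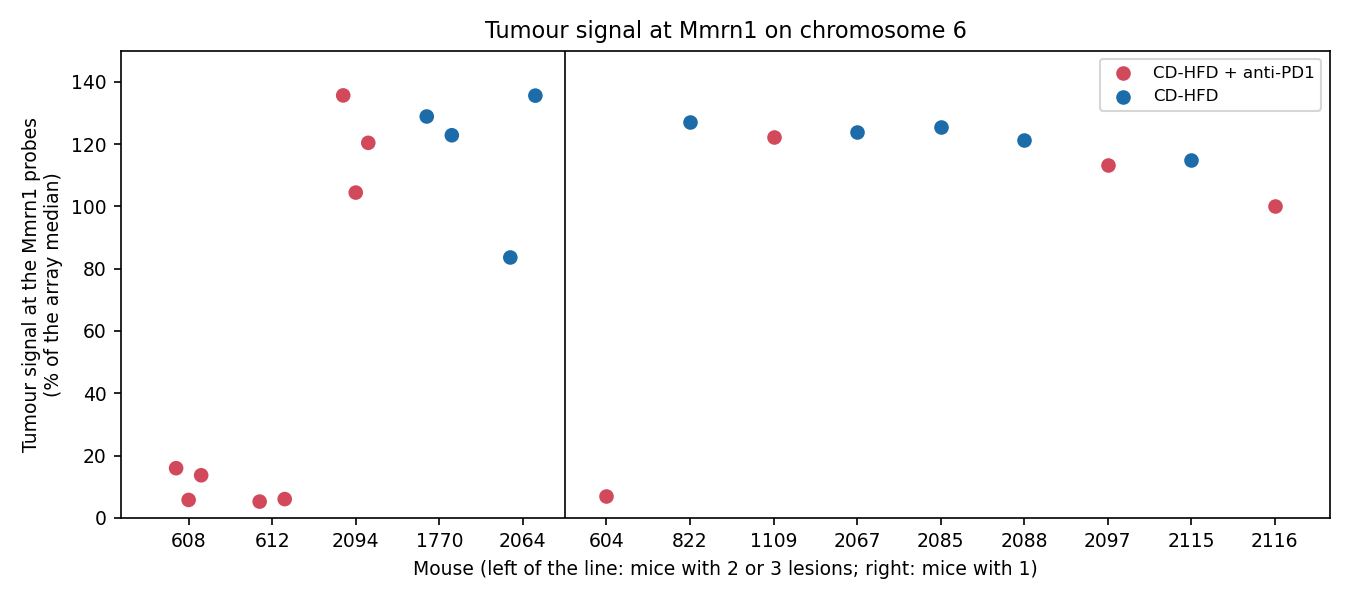
Mean tumour signal over the 3 probes named for Mmrn1, as a percentage of the array's median tumour signal (y axis), in all 21 tumours by mouse (x axis), with anti-PD1-treated mice in red and CD-HFD mice in blue. The lesions of mice 608 and 612 and the tumour of mouse 604 lie at 15.9% or lower and all other tumours at 83.6% or higher.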

How the data were processed

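The 21 hybridisations were 2-colour Agilent arrays. The deposited files are scanner output of Feature Extraction 11.0.1.1 (probe positions in mm9), holding for each spot green (tumour) and red (reference) processed signal intensity, already background-subtracted and dye-normalized, mean and background intensity, and the deposited log10 ratio of red over green, used only to check the direction. A table of loess-normalized log2 ratios, made by the authors from probes shared by both designs, served as an alternative. No dyes were swapped. Control and outlier spots were dropped, spots of a probe averaged, log2(green/red) centred on the array's median and reduced by the median of the other tumours of the design. Members and lists were chosen with earlier results of these data known. Whole autosomes, 5-Mb windows (at least 10 probes), segments (penalty 3 times the noise variance times the log of the probe number, at least 10 probes) and 500 kb around listed genes were averaged. Mice were compared with limma 3.58.1 (R 4.3.3, Benjamini-Hochberg adjustment) and exact permutations (scipy 1.17.1). Named items were shared, partly shared and opposite autosomes, the 5 largest private ones, features passing limma and each mouse's segment farthest from 0; Cphx, Efcab7 and Slc25a37 were named after their values were seen. Array number limits the precision, and lesions of a mouse are not independent animals. The steps were tested on simulated data. Regional GC came from probe sequences.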

Additional observations from a re-analysis of the deposited data

Results flagged for a closer look

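Dixon's test screened 39 sets of values, in groups of 8 (anti-PD1) and 4 (CD-HFD) lesions, for a lesion that stood apart from its group. For independent values chance alone gives about 1 in 20. The 8 lesions came from 3 mice and the 4 from 2, so they are not independent and this rate need not hold. In all, 4 of the 39 sets held such a lesion, which is given as a description. On chromosome 16, 608 L3 was at 0.22, with the next of the 8 anti-PD1 lesions at 0.057. On the same chromosome 2064 L1 was at 0.37, with the next of the 4 CD-HFD lesions at 0.057. On chromosome 6, 2064 L1 was at −0.31 and the nearest CD-HFD lesion at 0.0085. On chromosome 5, 1770 L4 was at −0.085 and the nearest at 0.084, a lesion that stood apart without being called.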

How the results depend on the processing

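The similarity of lesions of the same mouse had the same direction and stayed short of the threshold in 29 of 31 alternatives. Between slides it was −0.15, and without 1 mouse or lesion it lay between 0.021 and 0.25, past the threshold without 2094 L2. The difference in distance was above 0 and did not pass in any of 30 alternatives (0.0040 to 0.042 without 1 lesion, 0.0088 to 0.050 without 1 mouse), and that by treatment did not pass in any of 8. Autosomes that differed between mice numbered 1 with other mice as baseline, 1 with array weights, and 0 to 4 without 1 mouse or lesion. Windows numbered 1 at 1 Mb and single probes 5. Changes called in all lesions of a mouse numbered 1 with no baseline, the gain of chromosome 3 in mouse 1770 (0.34 in L1 and 0.18 in L4). They numbered 1, chromosome 15 in mouse 608, with the baseline of the same slide or of single-tumour mice (chosen after seeing the data). The same held with the authors' loess ratios, common probes, autosome medians or GC correction. Such changes numbered 3 at a threshold of 0.1, and 0 to 4 without 1 mouse or lesion. Changes in 2 of 3 lesions numbered 0 with normexp, 2 at 0.1, and 0 to 5 without 1 mouse or lesion (0 without mouse 608, 608 L1, 608 L6 or 608 L3). Without 1 of its lesions mouse 608 has 2 left and cannot enter this class, so that 0 follows from the definition. Without 608 L3, 4 changes were instead called in all lesions of a mouse. Opposite calls numbered 2 with no baseline, 2 with loess ratios, 2 with probes well above background, 3 with common probes, 8 at 0.1, and 0 to 1 without 1 mouse or lesion. Private changes numbered 9 with normexp, 15 at 0.2, and 17 to 31 without 1 mouse or lesion (17 without mouse 608, 19 without 2064 L1). Unresolved ones numbered 12 with loess ratios, 2 with probes well above background and 3 to 7 without 1 mouse or lesion. The altered length in common was 15.8% at 0.3 and 0.373% to 12.6% without 1 mouse. Of 170 recomputed values of named autosomes 1 turned sign, chromosome 13 in 608 L3, which was not called (0.0054 with no baseline). Of 230 at genes 3 did, all with the GC correction: at Axin1 −0.014 in 2064 L1 and −0.032 in 2094 L2, and at Stat3 −0.0073 in 2094 L2. The causes of these differences between processings were not tested. No paired analysis was possible because the treatment groups share no mice.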
